A study of Drosophila melanogaster with 9 samples.

Results

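The 10 genes described here encode the histone chaperone FACT, the Spt4, Spt5 and Spt6 proteins, subunits of the Paf1 complex and TfIIS, all of them factors that travel with RNA polymerase II along a gene. They are Ssrp, dre4, Spt6, Spt5, spt4, Rtf1, atms, Ctr9, hyx and TfIIS, chosen by symbol from knowledge of elongation factors linked to Chd1. All 10 of 10 were found among the 16837 genes of the deposited files, and all 10 passed the filter of at least 1 TPM in at least 3 libraries, as did 11094 genes in all. TPM is a transcript's share of a fixed library total, corrected for its length, so levels of different genes can be set side by side. A share can also fall because other RNAs rise, so a lower TPM need not mean fewer transcripts.

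RNA was taken from heads of virgin female Drosophila melanogaster aged 10 days, per the labels, in 3 genotypes with 3 libraries each. The wild-type group carries the label Chd1[WT/WT]. The Chd1-deficient group carries the label Chd1[-/-] and, by the series title, a Chd1 deletion. The third group, here elav>Chd1, expresses a UAS-Chd1 transgene under elav-Gal4, whose driver uses the promoter of a neuronal gene, and is labelled rescued. The labels do not say whether elav>Chd1 flies carry the deletion, and the series text names no wild type, so the reference group may hold a restored Chd1. The labels do not say whether replicate libraries stem from separate flies, so the p-values reflect variation among these libraries only, part or all of which may be technical.

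During elongation, nucleosomes ahead of the polymerase are loosened and rebuilt behind it. FACT and Spt6 are histone chaperones of this cycle, Spt4 and Spt5 form the pausing and processivity factor DSIF, the Paf1 complex couples the moving polymerase to histone modification, and TfIIS restarts a polymerase that has slid back. Chd1 is a nucleosome-spacing ATPase of the same machinery, and in yeast it is tied to the polymerase through FACT, Spt5 and the Paf1 subunit Rtf1.

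Markers of other tissues were abundant in these libraries labelled head. The summed level of ovary germline markers, of which the files hold 23 of 24, was 13170 to 14570 TPM (wild type), 6458 to 6791 TPM (Chd1-deficient) and 11010 to 11540 TPM (elav>Chd1). The most abundant were dhd (5288 ± 184.6, 905.1 ± 39.3 and 4735 ± 135.2 TPM in this order; SD, n = 3 throughout) and me31B (1947 ± 105.7, 1027 ± 29.1 and 1337 ± 34.4 TPM). The 14 neuron markers summed to 95.2 to 109.9, 427.8 to 454.8 and 172.4 to 176.9 TPM, led by nrv3 and nSyb, and the 13 photoreceptor markers, led by ninaE and Arr2, to 1437 to 1471, 5848 to 6015 and 2393 to 2411 TPM. Eggshell and follicle cell markers (18 of 19 present), led by Vm34Ca and Vm26Aa, summed to 24040 to 30200, 30150 to 32320 and 34470 to 37140 TPM. The 10 muscle markers, led by Mf and Mlc2, summed to 676.1 to 687, 3379 to 3497 and 2218 to 2259 TPM, and male germline markers (11 of 12 present), led by Mst87F and Mst84Dc, to 27.3 to 34.2, 361.2 to 391.8 and 8.61 to 10.62 TPM. The labels name only female flies, and the source of the male germline RNA was not tested. No marker in the files was at 0 in all libraries of a group. Genes at 1 TPM or more numbered 9159 to 9253 (wild type), 11142 to 11220 (Chd1-deficient) and 9743 to 9787 (elav>Chd1). In such bulk RNA, fewer cells of a type and less RNA per cell cannot be told apart, and the part of tissue makeup in the results below was not tested. The targeted gene Chd1 read 103.8, 108.5 and 92.6 TPM (wild type), 18.22, 19.95 and 20.19 TPM (Chd1-deficient) and 63.7, 63.1 and 63.7 TPM (elav>Chd1), so its RNA was reduced but present in the libraries labelled deficient.

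The elongation factor genes were lower in Chd1-deficient than in wild-type libraries without exception, with falls of 12.8% (Ssrp) to 42.7% (Rtf1) in TPM. Rtf1, Spt5, atms and dre4 fell most. The FACT subunits stood apart, dre4 with one of the larger falls and Ssrp with the smallest. The summed level of all 10 members was 1187 ± 52.05 TPM (wild type), 843.2 ± 8.34 TPM (Chd1-deficient) and 915.6 ± 15.35 TPM (elav>Chd1). In the Chd1-deficient libraries 10 of 10 members were called lower, at an adjusted p under 0.05 in limma (Benjamini-Hochberg over all genes tested), where 46.0% of all 11094 genes were called lower and 42.9% higher. All 3 Chd1-deficient libraries lay below all 3 wild-type libraries for each member, as they did for 45.5% of all genes, while 42.8% of all genes lay above in the same way and no member did. The members are abundant genes, and among the 7472 genes with at least 10 TPM in 3 libraries 65.0% were called lower and 24.8% higher. The members' median log2 fold change was -0.49, beside -0.05 for all genes tested and -0.32 for the more abundant ones. All fold changes below use log2(TPM + 0.5), and each ± after one is its SE.

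**Figure D1:**
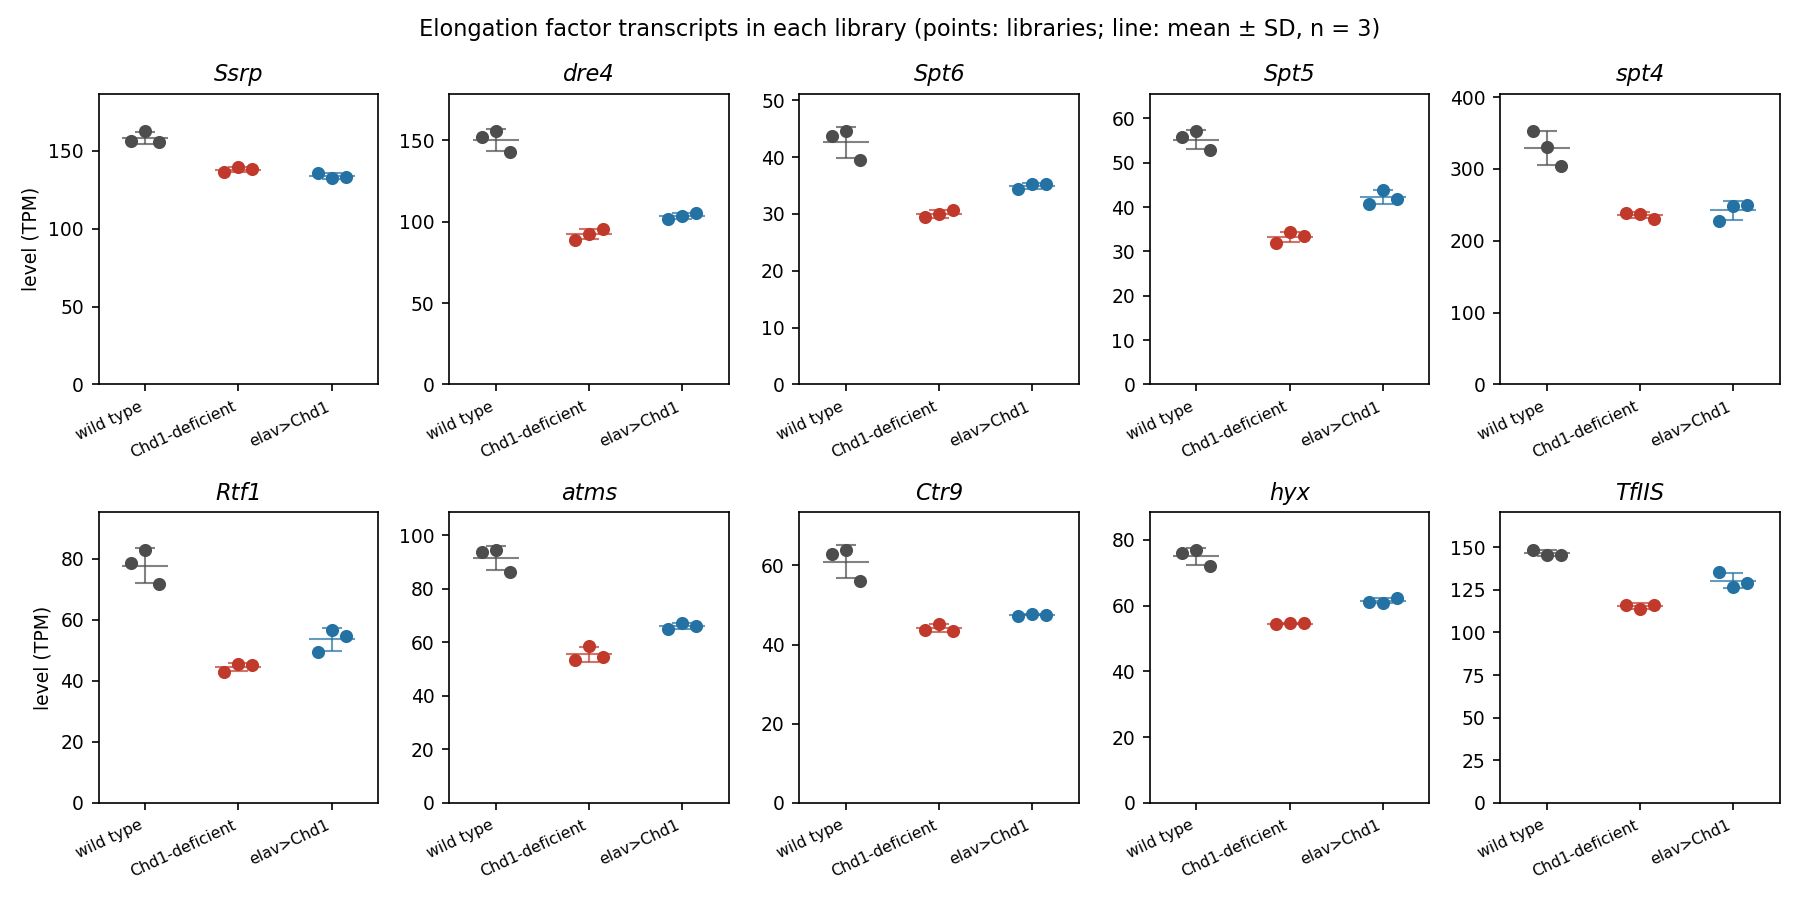
Level of each elongation factor transcript (vertical axis, TPM from 0) in the 9 libraries by genotype. Points are libraries, and the line with caps is the mean ± SD (n = 3). In each panel the 3 wild-type points lie above every other point, and in 8 panels the elav>Chd1 points also lie above all Chd1-deficient points.

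FACT consists of Ssrp and dre4. Ssrp (FBgn0010278; chromosome 2R, 23806361 to 23809004 in the BDGP6.54 annotation, which uses dm6 coordinates) encodes the high-mobility-group subunit. Its level was 156.4, 162.4 and 155.8 TPM (wild type), 136.1, 139.5 and 138 TPM (Chd1-deficient) and 136, 132.3 and 132.9 TPM (elav>Chd1). The Chd1-deficient and elav>Chd1 values lie close together, with every Chd1-deficient library a little above every elav>Chd1 library. On the log2 scale Ssrp fell by 0.20 ± 0.03 in Chd1-deficient (limma adjusted p = 8.8e-05) and by 0.24 ± 0.03 in elav>Chd1 libraries (limma adjusted p = 4.3e-05), both against wild type. Between the latter groups the difference was 0.04 (95% interval -0.02 to 0.11, limma adjusted p = 0.21).

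The other FACT subunit, the Spt16 homologue dre4 (FBgn0002183; chromosome 3L, 1871574 to 1876312), was separated between all groups. It stood at 152.1, 155.3 and 142.5 TPM (wild type), at 88.9, 92.4 and 95.1 TPM (Chd1-deficient) and at 101.3, 103.6 and 105.3 TPM (elav>Chd1). The highest level was in wild type and the lowest in Chd1-deficient libraries. Against wild type dre4 fell by 0.70 ± 0.04 (limma adjusted p = 7.6e-08) in Chd1-deficient and by 0.53 ± 0.04 (limma adjusted p = 2.1e-06) in elav>Chd1 libraries. Between Chd1-deficient and elav>Chd1 its log2 fold change was -0.17 ± 0.04 (limma adjusted p = 0.0045).

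The ratio between the FACT subunits differed between the genotypes in every library. The ratio of Ssrp to dre4 TPM within a library, which no scaling of libraries can move, was 1.028, 1.045 and 1.094 in wild type, 1.532, 1.509 and 1.451 in Chd1-deficient, and 1.343, 1.277 and 1.262 in elav>Chd1 libraries. These groups do not overlap: near-equal transcript levels in wild type, and more Ssrp than dre4 in Chd1-deficient libraries. The mean log2 ratio was higher by 0.50 in Chd1-deficient than in wild-type libraries and by 0.29 in elav>Chd1 than in wild-type libraries (exact two-sided permutation p = 0.1 each, the smallest p that 3 against 3 libraries allow). Altogether 18 such comparisons of subunit ratios were made, 14 of them at this smallest p, which becomes 0.129 after Benjamini-Hochberg adjustment over the 18.

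**Figure D2:**
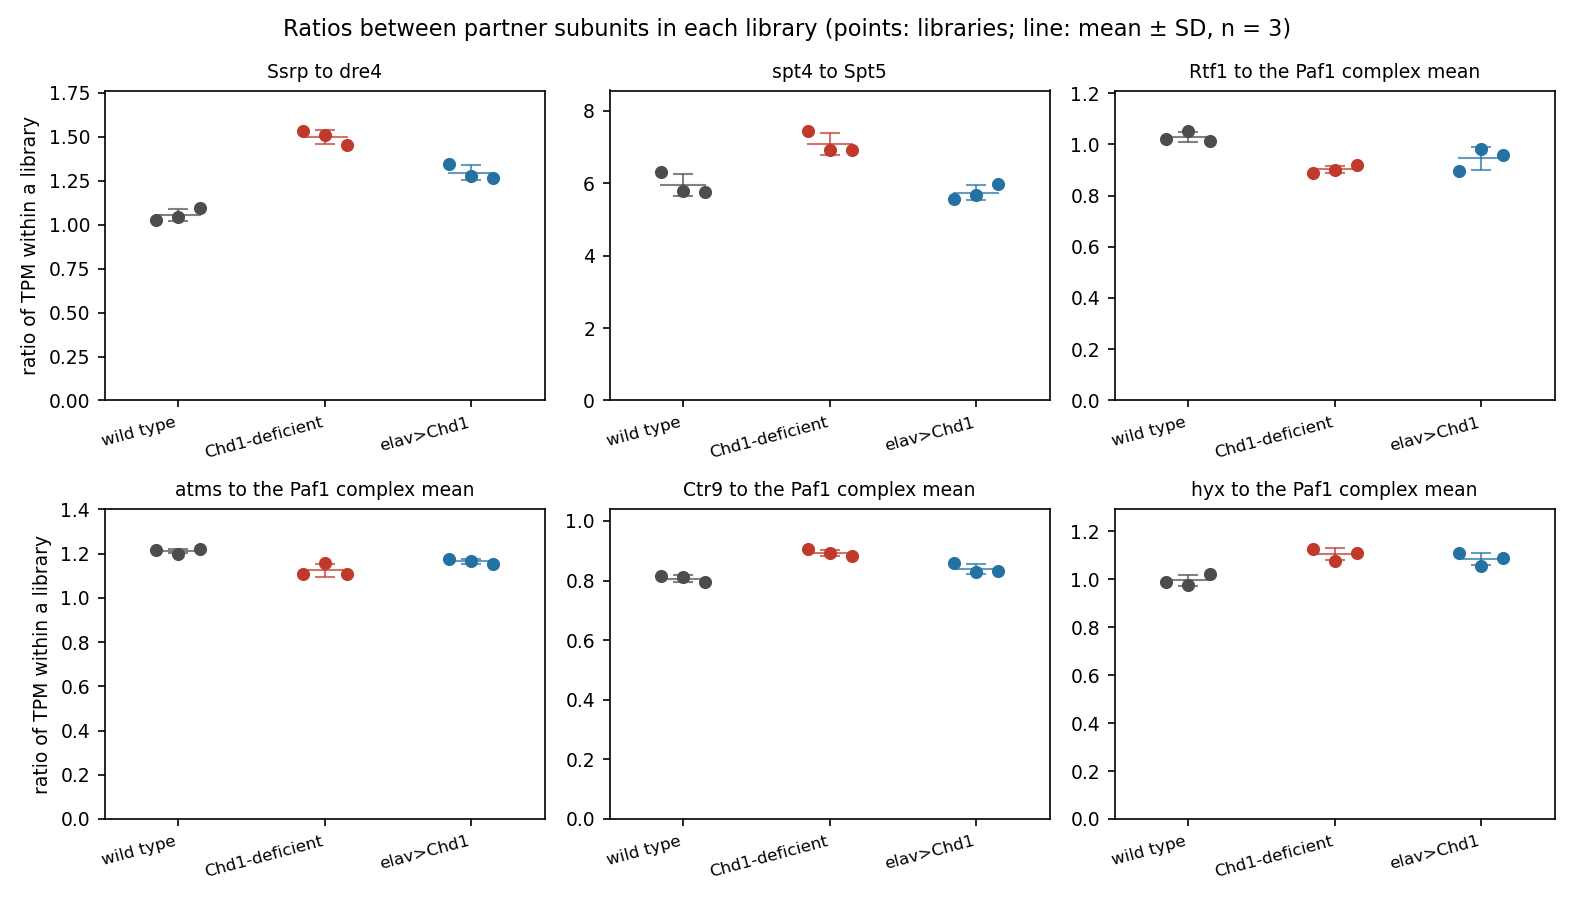
Ratio of TPM between partner subunits within each library (vertical axis, from 0) by genotype, for the FACT pair, the DSIF pair and Rtf1, atms, Ctr9 and hyx each over the geometric mean of these 4 Paf1 complex genes. Points are libraries and lines the mean ± SD (n = 3). The Ssrp to dre4 ratio rises from 1.056 ± 0.034 in wild type to 1.497 ± 0.0416 in Chd1-deficient libraries, and the spt4 to Spt5 ratio is highest in Chd1-deficient libraries.

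Spt6 (FBgn0028982; chromosome X, 6267797 to 6274984), a chaperone of histones H3 and H4 that binds the elongating polymerase, was the least abundant member in each genotype. Its level was 43.8, 44.5 and 39.4 TPM (wild type), 29.4, 29.9 and 30.7 TPM (Chd1-deficient) and 34.3, 35.2 and 35.2 TPM (elav>Chd1), with no overlap between any of the groups. Against wild type its log2 fold change was -0.50 ± 0.05 in Chd1-deficient libraries (limma adjusted p = 4e-06) and -0.28 ± 0.05 with elav>Chd1 (limma adjusted p = 0.00052).

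Spt5 and spt4 encode the subunits of DSIF. Spt5 (FBgn0040273; chromosome 2R, 19437483 to 19441898) stood at 55.8, 57.1 and 52.8 TPM (wild type), at 32, 34.4 and 33.4 TPM (Chd1-deficient) and at 40.8, 43.9 and 41.9 TPM (elav>Chd1). Its elav>Chd1 libraries lay about midway between the other groups. Against wild type its log2 fold change was -0.72 ± 0.05 in Chd1-deficient libraries (limma adjusted p = 1.7e-07) and -0.38 ± 0.05 with elav>Chd1 (limma adjusted p = 4.4e-05). Its log2 fold change between Chd1-deficient and elav>Chd1 libraries, -0.34 ± 0.05 (limma adjusted p = 0.00011), was the largest fitted change of the 10 members in that comparison, untested against the others.

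The small zinc-finger partner spt4 (FBgn0028683; chromosome 2R, 12633589 to 12634172) was the most abundant member in each genotype. Its level was 352.2, 330.0 and 304.3 TPM (wild type), 238.1, 237.8 and 231 TPM (Chd1-deficient) and 227.3, 249.1 and 250.5 TPM (elav>Chd1). The Chd1-deficient values lie within the range of the elav>Chd1 values, and both groups lie below wild type. Against wild type spt4 fell by 0.48 ± 0.05 (limma adjusted p = 9.2e-06) in Chd1-deficient and by 0.44 ± 0.05 (limma adjusted p = 4.3e-05) in elav>Chd1 libraries. Between the latter, the difference was -0.04 (95% interval -0.16 to 0.08, limma adjusted p = 0.54). The spt4 to Spt5 ratio was 6.31, 5.78 and 5.77 in wild type, 7.44, 6.92 and 6.91 in Chd1-deficient and 5.57, 5.67 and 5.97 in elav>Chd1 libraries. It was thus higher in every Chd1-deficient library than in any other library, by 0.25 (log2) against wild type and 0.31 against elav>Chd1 (exact permutation p = 0.1 each), while wild type and elav>Chd1 overlapped (exact permutation p = 0.4).

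Of the Paf1 complex, Rtf1, atms, Ctr9 and hyx were members. Rtf1 (FBgn0034722; chromosome 2R, 22375090 to 22378484), which in yeast promotes ubiquitination of histone H2B and binds Chd1, had the largest fall of the 10 in Chd1-deficient against wild type. It stood at 78.7, 82.9 and 71.7 TPM (wild type), at 42.9, 45.6 and 45.2 TPM (Chd1-deficient) and at 49.4, 56.6 and 54.9 TPM (elav>Chd1). None of its groups overlap. The log2 fold change was -0.79 ± 0.06 (limma adjusted p = 6.6e-07) for Chd1-deficient against wild type, -0.53 ± 0.06 (limma adjusted p = 3.6e-05) for elav>Chd1 against wild type, and -0.26 ± 0.06 (limma adjusted p = 0.0041) for Chd1-deficient against elav>Chd1.

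The Paf1 homologue atms (FBgn0010750; chromosome 3R, 4750035 to 4777490) gave 93.9, 94.6 and 86.2 TPM (wild type), 53.4, 58.8 and 54.7 TPM (Chd1-deficient) and 64.9, 67.2 and 66.2 TPM (elav>Chd1). Again the groups were separate and in the same order. Against wild type its level changed by -39.3% in Chd1-deficient libraries (log2 -0.71 ± 0.05, limma adjusted p = 2e-07), and its log2 fold change with elav>Chd1 was -0.47 ± 0.05 (limma adjusted p = 1.4e-05).

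Ctr9 (FBgn0035205; chromosome 3L, 1307224 to 1311805), the scaffold subunit of tetratricopeptide repeats, gave 62.9, 63.9 and 56.2 TPM (wild type), 43.7, 45.2 and 43.5 TPM (Chd1-deficient) and 47.4, 47.8 and 47.6 TPM (elav>Chd1). It fell by 0.46 ± 0.05 (limma adjusted p = 6.4e-06) and by 0.35 ± 0.05 (limma adjusted p = 1e-04) against wild type in this order of groups. Every Chd1-deficient library lay below every elav>Chd1 library, but the difference of -0.11 (95% interval -0.22 to 0.00) did not pass the test (limma adjusted p = 0.0799). This call depended on the settings: adjusted p ran from 0.0036 to 0.18 over the 17 fits, and leaving out wild-type replicate 3, which enters only through the shared spread, gave 0.007.

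hyx (FBgn0037657; chromosome 3R, 9038760 to 9042349), the homologue of Cdc73 and a partner of the Wnt effector Armadillo, gave 76.2, 77 and 72.2 TPM (wild type), 54.3, 54.6 and 54.7 TPM (Chd1-deficient) and 61.2, 60.9 and 62.4 TPM (elav>Chd1). Its replicates were the tightest of the Chd1-deficient group, with a coefficient of variation of 0.4%. hyx fell by 0.46 ± 0.04 (limma adjusted p = 5.3e-07) and by 0.29 ± 0.04 (limma adjusted p = 4.5e-05) against wild type in Chd1-deficient and elav>Chd1 libraries.

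Relative to the mean of these 4 Paf1 complex genes in the same library, Rtf1 went from 1.029 ± 0.0206 in wild type to 0.9016 ± 0.0146 in Chd1-deficient libraries and atms from 1.212 ± 0.0105 to 1.125 ± 0.0293. Ctr9 went from 0.8068 ± 0.0117 to 0.8934 ± 0.0103 and hyx from 0.9945 ± 0.0225 to 1.104 ± 0.0242. In each of these 4 cases the wild-type and Chd1-deficient libraries did not overlap (exact permutation p = 0.1 each), with Rtf1 and atms lower and Ctr9 and hyx higher. The log2 shifts were -0.19 (Rtf1), -0.11 (atms), 0.15 (Ctr9) and 0.15 (hyx). Each is taken against the mean of the same 4, so the shifts sum to 0 by construction, the tests are not separate, and they are not on the footing of the FACT pair's ratio. With Atu, the homologue of the subunit Leo1, as one more gene in the mean, an alternative chosen after seeing the data, they were -0.14, -0.06, 0.20 and 0.20, and -0.20 for Atu. The atms libraries of wild type and Chd1-deficient then overlapped.

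TfIIS (FBgn0010422; chromosome 2L, 15058919 to 15060757) stimulates RNA cleavage by a backtracked polymerase. It gave 148.3, 145.4 and 145.6 TPM (wild type), 116.2, 113.5 and 116.3 TPM (Chd1-deficient) and 135.4, 126.5 and 128.9 TPM (elav>Chd1). The groups were separate, and elav>Chd1 lay midway. In Chd1-deficient libraries TfIIS fell by 0.34 ± 0.03 on the log2 scale against wild type (limma adjusted p = 2.5e-06). Its log2 fold change for elav>Chd1 against wild type, -0.17 ± 0.03 (limma adjusted p = 0.00085), lay near the median of all genes in that comparison, -0.15.

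**Figure D3:**
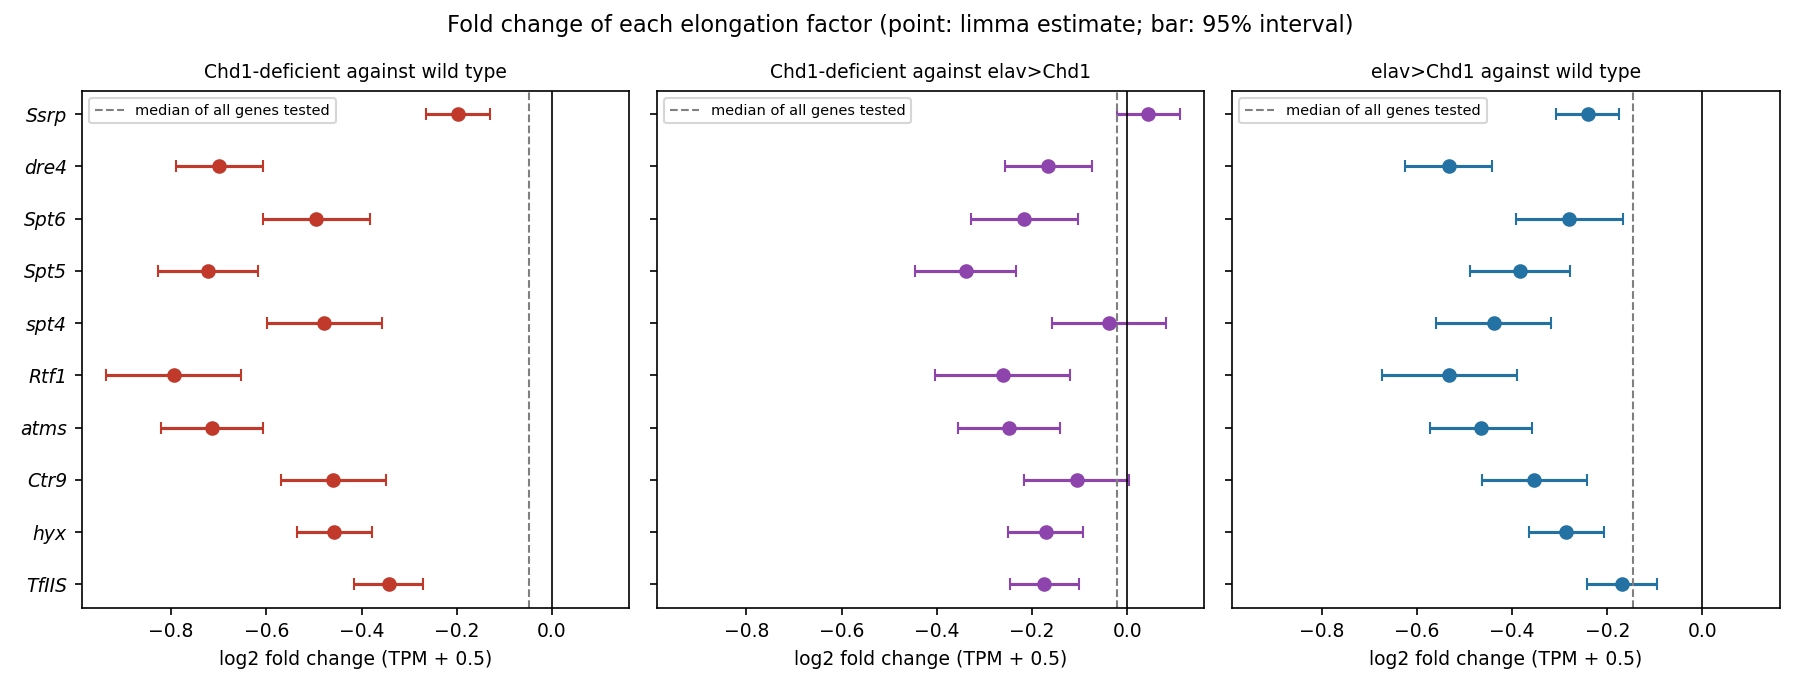
Log2 fold change of each elongation factor (horizontal axis, on TPM + 0.5) in the 3 comparisons of genotypes. Points are limma estimates, bars their 95% intervals, and the dashed line is the median of all genes tested. All intervals lie below 0 in both comparisons with wild type, while those of Ssrp, spt4 and Ctr9 reach 0 between Chd1-deficient and elav>Chd1.

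The comparison of elav>Chd1 with wild type asks whether libraries with the elav-driven Chd1 transgene stood at the wild-type level. They did not for any member: 10 of 10 were called lower than wild type by limma and none higher, where 47.3% of all genes were called lower, 30.6% higher and 77.9% in either direction. Of the more abundant genes 64.0% were called lower. The 3 elav>Chd1 libraries lay below the 3 wild-type libraries for all 10 members and for 47.6% of all genes. The members' median log2 fold change was -0.37, beside -0.15 for all genes and -0.23 for the more abundant ones. Between Chd1-deficient and elav>Chd1 libraries, 7 of 10 were called lower in Chd1-deficient (33.7% of all genes, 45.5% of the more abundant ones, and 68.4% of all genes in either direction), namely dre4, Spt6, Spt5, Rtf1, atms, hyx and TfIIS. Of the 3 not called, no limma test gave an unadjusted p under 0.05. The members' median in this comparison was -0.17, beside -0.02 for all genes and -0.11 for the more abundant ones. All 3 Chd1-deficient libraries lay below all 3 elav>Chd1 libraries for 8 members (39.6% of all genes) and above them for Ssrp (37.5% of all genes).

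On the log2 scale the elav>Chd1 mean lay 8.1% (spt4) to 50.8% (TfIIS) of the way from the Chd1-deficient to the wild-type mean for 9 members. The spt4 value ran from 3% to 17.6% when 1 library was left out, and that of TfIIS from 42.7% to 56.9%. For Spt6 it lay 43.6% of the way, for Spt5 47%, for atms 34.7% and for dre4 23.7%. Ssrp was the exception at -22.3%, since its elav>Chd1 mean lay below the Chd1-deficient one. Chd1-deficient and elav>Chd1 libraries are each compared with the same wild-type libraries, so the falls in both are not independent of each other. Of the wild-type libraries, replicate 3 was the lowest for 9 of 10 members and for 65.2% of all genes tested, and without it all 10 members were still called lower in both comparisons.

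The order of levels changed little between genotypes. In wild type it ran spt4, Ssrp, dre4, TfIIS, atms, Rtf1, hyx, Ctr9, Spt5 and Spt6, where dre4 and TfIIS, Rtf1 and hyx, and Ctr9 and Spt5 were neighbours whose libraries overlapped. In both other genotypes TfIIS stood above dre4 and hyx above Rtf1. In Chd1-deficient libraries atms and hyx overlapped, as did Rtf1 and Ctr9, and in elav>Chd1 libraries only Ssrp and TfIIS overlapped. The members lay above 63.2% (Spt6) to 96% (spt4) of the genes tested in wild type, and above 58.7% to 94.3% in Chd1-deficient libraries.

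**Figure D4:**
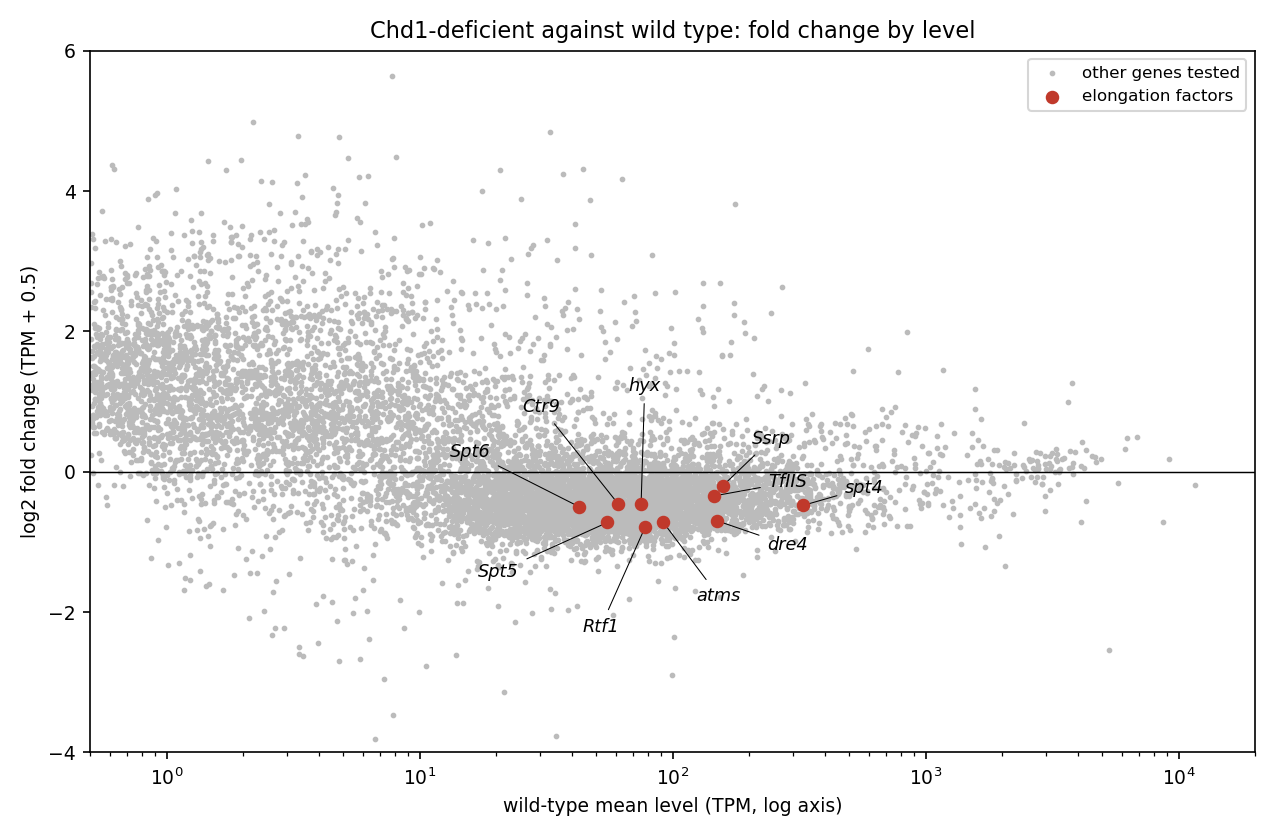
Log2 fold change of Chd1-deficient against wild type (vertical axis, on TPM + 0.5) by wild-type mean level (horizontal axis, TPM, log scale) for 9994 of the 11094 genes tested; the other 1100 lie outside the axes. The labelled elongation factors lie between -0.79 and -0.20, and of the genes with at least 10 TPM in 3 libraries 65.0% were also called lower.

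Set against genes of at least 10 TPM in 3 libraries, the falls of Rtf1, Spt5, atms and dre4 stood low in the distribution, with 8.6%, 12.8%, 13.4% and 14.3% of those genes having a lower fold change in Chd1-deficient against wild type. Spt6, spt4, Ctr9 and hyx stood at 33%, 34.9%, 36.7% and 37%. TfIIS at 48% and Ssrp at 60% lay near or above the middle of these genes, although both were called lower.

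Most other genes of the elongation machinery were lower as well. Of 15 partners of the Paf1 complex and Spt6 and writers or readers of co-transcriptional histone marks, 14 were called lower in Chd1-deficient than in wild-type libraries (median log2 fold change -0.56). Beside this and the following list counts, 46.0% of all genes and 65.0% of those with at least 10 TPM were called lower, and 42.9% and 24.8% higher. Hcf, the host cell factor homologue found in histone-modifying complexes, fell from 62.3 ± 7.09 to 28.2 ± 1.92 TPM, a log2 change of -1.13 ± 0.08 (limma adjusted p = 3.2e-07). Atu fell from 50.9 ± 1.8 to 28.1 ± 0.453 TPM, a larger fitted change than any of the 4 Paf1 complex members, untested against them (log2 fold change -0.84 ± 0.04, limma adjusted p = 2.6e-08). Its elav>Chd1 level was 42.2 ± 1.25 TPM. MRG15, a chromodomain reader of methylated histone H3, differed by -0.43 (log2) between Chd1-deficient and elav>Chd1. Set1, a histone H3 methyltransferase, fell by 0.58 from wild type to elav>Chd1.

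Of 19 genes of pausing factors, elongation kinases and elongins, 18 were called lower and 1 higher against wild type in Chd1-deficient libraries (median -0.64). Su(Tpl), the ELL homologue, went from 94.7 ± 6.43 to 51.1 ± 2.49 TPM, and stood at 81.8 ± 2.63 TPM in elav>Chd1 libraries. TH1, a subunit of the pausing factor NELF, went from 67.5 ± 4.48 to 36.6 ± 1.33 TPM. Cdk12, a kinase of the polymerase tail, lay at 26.7 ± 1.45 TPM in Chd1-deficient against 37.7 ± 0.991 TPM in elav>Chd1, and ear, of the super elongation complex, fell by 0.50 on the log2 scale from wild type to elav>Chd1. The gene that rose was EloC, Elongin C, from 260.2 ± 6.38 to 297.9 ± 10.22 TPM (limma adjusted p = 0.00019), named after its values were seen.

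For RNA polymerase II the counts were near those of all genes with at least 10 TPM. Of its 12 subunit genes 8 were called lower, 2 higher and 2 neither in Chd1-deficient against wild type (median -0.33, beside -0.32 for those genes). RpII140, the second largest subunit, fell from 70 ± 4.92 to 38.1 ± 1.84 TPM, and the stalk subunit Rpb4 fell by 0.71 on the log2 scale. RpII33 differed by -0.36 (log2) between Chd1-deficient and elav>Chd1, and Rpb7 fell by 0.48 from wild type to elav>Chd1. The small subunits Rpb10 (log2 fold change 0.24, limma adjusted p = 0.0366) and Rpb12 (0.19, limma adjusted p = 0.022) were the 2 called higher, and are named after their values were seen. Both calls were lost without wild-type replicate 1 or without Chd1-deficient replicate 1, and 1 of the 2 without wild-type replicate 2, without Chd1-deficient replicate 2 or 3, or with no filter on low values. Of 12 initiation factors, 11 were called lower (median -0.53), with Xpd of TFIIH at 33.1 ± 3.17 against 19.2 ± 1.03 TPM and TfIIB at a log2 fold change of -0.72. Ssl1 and Tfb4, also of TFIIH, lay lower than in elav>Chd1 by -0.57 and -0.37.

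Over these 4 lists 51 of 58 genes were called lower and 3 higher in Chd1-deficient against wild type (46.0% and 42.9% of all genes), 50 lower and 1 higher in elav>Chd1 against wild type (47.3% and 30.6%), and 37 lower and 5 higher in Chd1-deficient against elav>Chd1 (33.7% and 34.7%). Of the genes with at least 10 TPM, 65.0%, 64.0% and 45.5% were called lower in these comparisons. The 5 higher genes of the last comparison were wds, CycK, Rpb8, Rpb10 and Rpb12, named after their values were seen. The adjusted p of Rpb10 there was 0.0484 in limma and ran from 0.0062 to 0.15 over the 17 fits. In elav>Chd1 against wild type the list medians were -0.32 (partners and histone marks), -0.41 (pausing factors and kinases), -0.29 (RNA polymerase II) and -0.22 (initiation factors). In Chd1-deficient against elav>Chd1 they were -0.20, -0.21, -0.04 and -0.22.

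**Figure D5:**
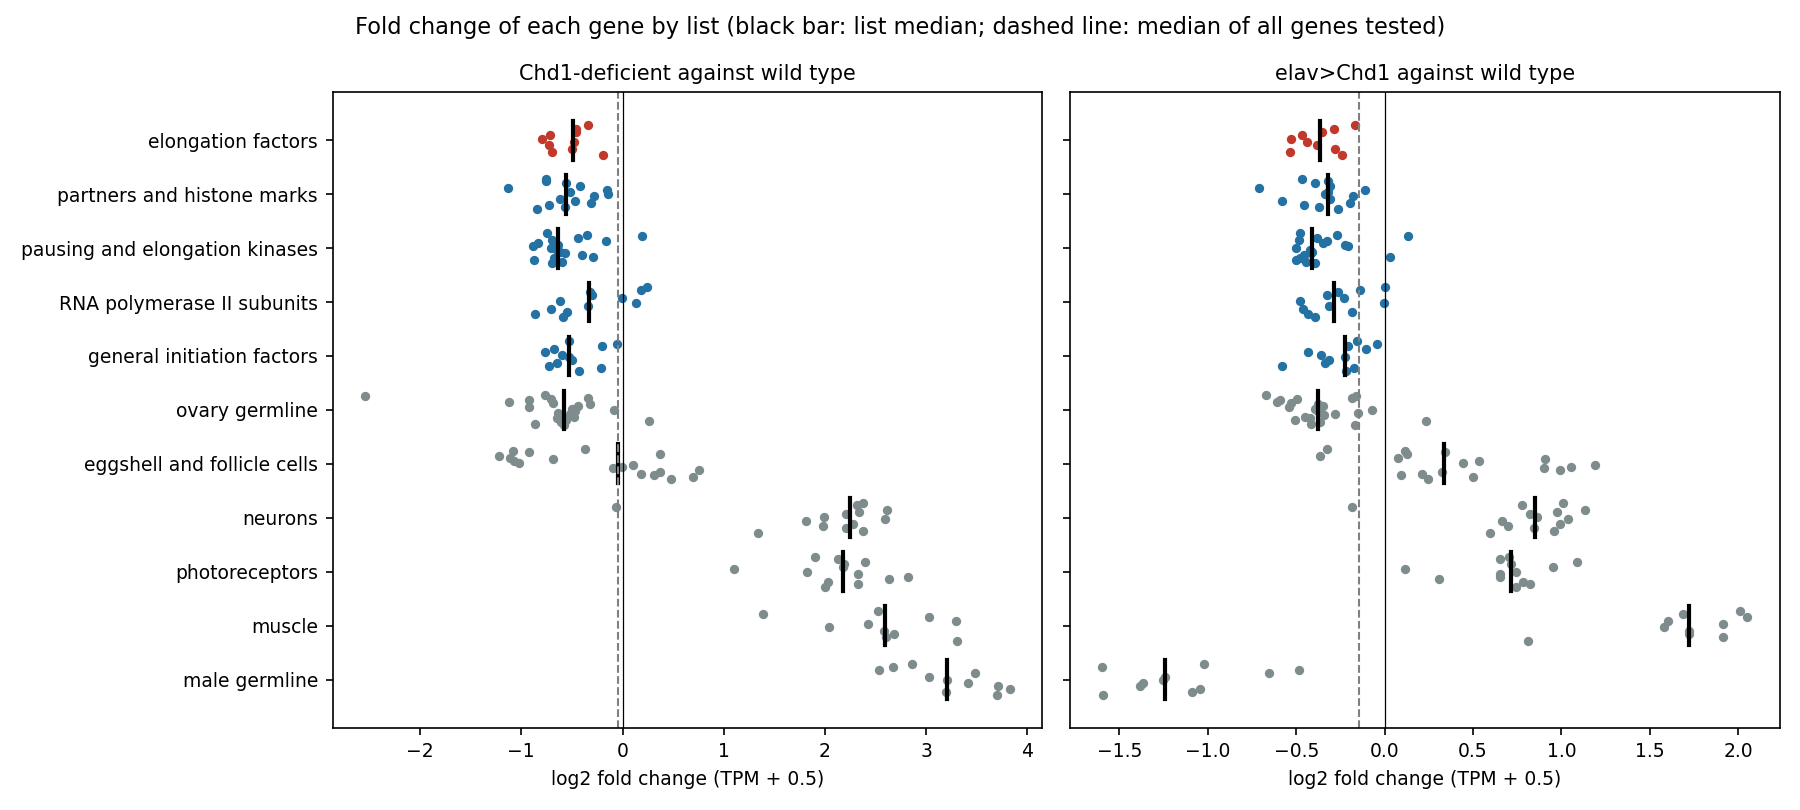
Log2 fold change (horizontal axis, on TPM + 0.5) of each tested gene in the elongation factor list, 4 related lists and 6 marker lists, for both comparisons with wild type. Points are genes, black bars list medians, and the dashed line is the median of all genes tested. The median of the elongation factors (-0.49, left) lies near those of initiation factors (-0.53), partners and histone marks (-0.56) and ovary germline markers (-0.58). Pausing and elongation kinases (-0.635) and RNA polymerase II subunits (-0.332) lie farther off, on either side. Neuron (2.25) and muscle (2.59) markers lie higher.

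Ovary germline markers moved in the same direction as the elongation factors. Of 23 tested, 21 were called lower and 1 higher in Chd1-deficient against wild type (median -0.58), 21 lower and 1 higher in elav>Chd1 against wild type (median -0.38), and 15 lower and none higher in Chd1-deficient against elav>Chd1 (median -0.16). These counts stand beside the same shares of all genes and of genes with at least 10 TPM given for the related lists. The mean log2 level of the 10 members minus that of these 23 markers was -1.33, -1.31 and -1.27 in wild type, -1.18, -1.20 and -1.19 in Chd1-deficient, and -1.31, -1.32 and -1.31 in elav>Chd1 libraries. The difference was higher in Chd1-deficient libraries by 0.11 against wild type and 0.12 against elav>Chd1, without overlap. It rested largely on dhd, whose log2 fold changes were -2.55 and -2.39. Without dhd, a choice made after seeing the data, the difference was 0.03 in both comparisons. The wild-type and Chd1-deficient libraries then overlapped, while those of Chd1-deficient (-1.086 to -1.065) still lay above those of elav>Chd1 (-1.113 to -1.1). In Chd1-deficient against wild type, neuron markers moved the other way (13 of 14 higher, median 2.25), as did muscle (10 of 10, median 2.59), photoreceptor (13 of 13, median 2.18) and male germline markers (11 of 11, median 3.20). Eggshell and follicle cell markers were divided, with 6 of 18 higher and 9 lower (median -0.05). In elav>Chd1 against wild type, 11 of 11 male germline markers were called lower (median -1.24) and 13 of 18 eggshell and follicle cell markers higher, with 2 lower (median 0.33). There 13 of 14 neuron, 12 of 13 photoreceptor and 10 of 10 muscle markers were called higher (medians 0.85, 0.71 and 1.72). In Chd1-deficient against elav>Chd1, 13 of 14 neuron, 13 of 13 photoreceptor, 9 of 10 muscle and 11 of 11 male germline markers were called higher (medians 1.36, 1.31, 0.78 and 4.29), and 11 of 18 eggshell and follicle cell markers lower, with 4 higher (median -0.92). Of all genes, 42.9%, 30.6% and 34.7% were called higher in these 3 comparisons, in the order given, and 46.0%, 47.3% and 33.7% lower. The 11 male germline markers together reached only 8.61 to 10.62 TPM in elav>Chd1, so the size of their fold changes there depends on the pseudocount of 0.5.

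The 5 genes whose levels followed the members' mean most closely over the 9 libraries were Rcc1, RtcB, CG17598, lili and Pen, with a root mean square distance of 0.0179 to 0.0201 on the centred log2 scale. Rcc1, the exchange factor of the Ran GTPase, stood at 282.2 ± 15.04, 194.6 ± 3.67 and 219.4 ± 5.38 TPM in wild type, Chd1-deficient and elav>Chd1. Pen, an importin alpha, stood at 830.4 ± 25.9, 572 ± 9.14 and 641.6 ± 7.05 TPM. Of the members themselves Ctr9 (0.0394), Spt6 (0.0404) and hyx (0.0417) lay nearest to that mean and Ssrp (0.1433) farthest. Although each member is part of that mean, 1.95% of all genes tested lay nearer to it than Ctr9, and 33.66% nearer than Ssrp.

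In the annotation several members overlap genes on the opposite strand, and the sources used here do not give whether counting used strand. atms shares 221 exon bases (10.8% of its exons) with CG44098, which reached 1.53 to 4.67 TPM as a group mean. TfIIS shares 202 bases (11.4%) with CG33679, which stayed at 0.426 to 0.822 TPM, and Rtf1 shares 222 bases (7%) with lncRNA:CR45327, at 1.37 to 1.58 TPM. Ctr9 shares 146 and 87 bases (3.8% and 2.3%) with neighbours listed as CG2277 and CG9186, which stood at 35.5 to 44.4 and 69.7 to 91.5 TPM. No overlap of exons was annotated for Ssrp, dre4, Spt5 or hyx, and overlaps of at most 13 bases for Spt6 and spt4. The authors' deposited tables, which by their title lines hold genes with a log2 fold change of at least 1, list none of the 10 members among 5307 genes (against wild type) and 3546 genes (against elav>Chd1). Of the related genes, Hcf alone is listed there, in the table against wild type. Every member's fitted change here was smaller than 1 in size (largest -0.79, Rtf1 against wild type), so their absence adds nothing further. Most listed genes are higher in Chd1-deficient libraries: 5069 higher and 238 lower against wild type, and 3276 higher and 270 lower against elav>Chd1.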

How the data were processed

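Each library has 1 deposited file of TPM computed by the authors. Salmon and DESeq2 are named in the submitters' processing notes, with neither version nor role. Genome build and sequencing depth are not given in the sources used here, and TPM keeps no depth. Beside these, 2 deposited tables hold the authors' log2 fold changes, a mean signal, standard errors, a test score and p-values, under column names DESeq2 uses; which genes they list was taken from them.

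Values were transformed to log2(TPM + 0.5). limma-trend fitted all 9 libraries with 1 mean per genotype, for 11094 genes (1 TPM or more in 3 or more libraries), and p-values were Benjamini-Hochberg adjusted over all of them (threshold 0.05). Subunit ratios were compared by exact two-sided permutation tests over libraries. The procedure was also run on simulated data in which few genes changed, as many up as down. In the real libraries most genes were called, so that run does not show how the procedure behaves here. Members and lists were chosen with earlier results of these data known. Named genes are the members, Chd1, the 2 called genes with the largest absolute fold change per related list and comparison, the 2 most abundant markers per list, and the 5 genes nearest in pattern; exceptions are marked. Coordinates come from the Ensembl 115 annotation, BDGP6.54, matched by symbol. A planned search of promoters and of paralogues by protein sequence was not run. Alternatives were no filter, at least 10 TPM, pseudocounts of 0.1 and 1, only the 2 groups compared, median-ratio scaling, replicate number as a block, and each library left out. Added after seeing the data were ovary germline markers without dhd, a Paf1 complex mean with Atu, and the position of elav>Chd1 with each library left out. Tools were R 4.3.3, limma 3.58.1, Python 3.11.15, pandas 2.3.3, numpy 2.4.6 and matplotlib 3.10.9.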

Additional observations from a re-analysis of the deposited data

How the results depend on the processing

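Over the 16 alternatives to the fit, the counts of members called lower stayed at 10 against wild type for both Chd1-deficient and elav>Chd1 libraries, and no member was called higher in any comparison. Lower calls in Chd1-deficient against elav>Chd1 were 7 or 8 (7 to 8 when a library was left out). The eighth was Ctr9, called with only the 2 groups compared (adjusted p = 0.013), with median-ratio scaling (0.0036) and without wild-type replicate 3 (0.007). No member's fold change changed sign. With Atu added to the Paf1 complex mean, chosen after seeing the data, the log2 ratios of Rtf1 and atms in Chd1-deficient against elav>Chd1 turned from -0.066 and -0.051 to 0.012 and 0.027; the cause lies in the mean, which Atu's larger fall lowers. In the comparison with wild type, the fold change of Rtf1 in Chd1-deficient libraries ran from -0.85 to -0.75 and that of Ssrp from -0.21 to -0.17. The replicate numbers gave no sign of pairing, which cannot show that there is none. Over 9 same-numbered pairs the correlation of deviations ran from -0.155 to 0.108, beside -0.151 to 0.18 for differently numbered pairs. With the replicate block 10 members were called lower in each comparison with wild type and 7 in the remaining one. Of all genes, the block called 5084 lower for Chd1-deficient and 5173 for elav>Chd1, each against wild type, and 3615 between these groups. RNA polymerase II genes called higher against wild type went from 2 to 1 with no filter and to between 0 and 3 when a library was left out. Filtering at 10 TPM moved the median of all genes in Chd1-deficient against wild type from -0.05 to -0.32, so the standing of members among all genes depends on which genes are kept. The planned searches of promoters and protein sequences were not run. Depth is unknown, so counting error could not be set beside the spread of replicates.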
